A study of Mus musculus with 15 samples.

Results

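Protein-coding promoters that carried only a weak H3K4me3 peak were examined in the amygdala of WT mice. GENCODE version M21 annotates 21755 protein-coding genes on chromosomes 1 to 19 and X of the mouse assembly GRCm38, also called mm10. Of these, 14193 (65.2%) had at least 1 H3K4me3 summit within 1 kb of 1 of their transcription start sites (TSSs). The genes were selected on the score of the highest-scoring summit in that window, here called the best summit, and those with a best summit below 10 were kept. This rule gave 451 weakly marked genes, which are 3.18% of the genes with a promoter summit and 2.07% of all coding genes. Both percentages follow from the threshold and describe the list only.

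The series profiled H3K4me3 by ChIP-seq in amygdala nuclei of adult male F1 129xB6 mice. The genotypes were WT, a heterozygous mutant (Kmt2a-HET), a knockout (Kdm5c-KO) and their double mutant (DM). There were 2 WT samples, 3 samples of each mutant genotype and 1 input per genotype, and the mutant samples were not analysed here. Nuclei were taken from dissected tissue and no sort by cell type is described, so any cell type in it could contribute chromatin. A mark confined to few cells and a mark that is sparse in many cells cannot be told apart in such tissue. The file used is 1 list of 24162 summits for both WT mice, each a single base with a score. The score was read as −log10 of the q-value of the peak caller MACS2, a scale that the file does not name. Because the list pools the WT mice, no spread between replicates and no test can be given, the list holds no read depth behind a score, and the 95% Wilson intervals below cover counting error only.

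Trimethylation of lysine 4 on histone H3 marks the nucleosomes that flank the start sites of genes. It is usually strong and broad at promoters within CpG islands, where CXXC-domain proteins bring methyltransferases of the KMT2 family to unmethylated CpG, and KDM5 enzymes remove it. Promoters poor in CpG, typical of genes used in 1 cell type, tend to carry the mark mainly where the gene is transcribed.

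The promoter sequences of the weakly marked genes ranged from CpG islands to stretches with almost no CpG. The examples show both ends of this range, as the 200 bases before the TSS nearest to the best summit, 5′ to 3′ on the strand of the gene, with each CpG in capitals. They are from the RefSeq copy of GRCm38.p6 and were restricted to windows free of coding-gene exons. Foxc2 (chr8:121115971-121116170, plus strand), Ddx43 (chr9:78395577-78395776, plus strand) and Gsc (chr12:104473331-104473530, minus strand) were the 3 members with the highest CpG content under this restriction. Their windows held 8, 19 and 10 CpGs.
Foxc2: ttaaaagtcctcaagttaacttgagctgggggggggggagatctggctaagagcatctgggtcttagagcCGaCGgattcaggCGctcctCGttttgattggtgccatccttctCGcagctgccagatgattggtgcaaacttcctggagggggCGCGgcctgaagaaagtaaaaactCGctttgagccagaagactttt
Ddx43: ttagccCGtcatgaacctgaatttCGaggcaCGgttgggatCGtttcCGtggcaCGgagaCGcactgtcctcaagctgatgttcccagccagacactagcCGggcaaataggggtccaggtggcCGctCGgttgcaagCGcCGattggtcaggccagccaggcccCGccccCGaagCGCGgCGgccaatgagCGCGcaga
Gsc: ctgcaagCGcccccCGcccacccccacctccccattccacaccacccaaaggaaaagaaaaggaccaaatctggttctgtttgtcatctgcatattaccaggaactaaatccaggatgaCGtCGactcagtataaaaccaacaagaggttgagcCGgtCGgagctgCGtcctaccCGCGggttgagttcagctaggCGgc

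Trim30a (chr7:104465194-104465393, minus strand), Gm2696 (chr10:77814482-77814681, plus strand) and Slfn2 (chr11:83064912-83065111, plus strand) were the 3 with the lowest CpG content. The window of Trim30a held no CpG, and those of Gm2696 and Slfn2 held 1 each.
Trim30a: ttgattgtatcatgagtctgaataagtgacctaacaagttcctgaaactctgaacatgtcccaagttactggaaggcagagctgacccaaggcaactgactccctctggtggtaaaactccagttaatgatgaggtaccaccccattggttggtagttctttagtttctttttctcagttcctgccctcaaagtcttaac
Gm2696: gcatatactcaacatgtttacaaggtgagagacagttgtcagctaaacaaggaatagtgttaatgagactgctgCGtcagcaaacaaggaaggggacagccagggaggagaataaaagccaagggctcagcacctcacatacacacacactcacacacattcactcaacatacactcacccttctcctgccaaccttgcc
Slfn2: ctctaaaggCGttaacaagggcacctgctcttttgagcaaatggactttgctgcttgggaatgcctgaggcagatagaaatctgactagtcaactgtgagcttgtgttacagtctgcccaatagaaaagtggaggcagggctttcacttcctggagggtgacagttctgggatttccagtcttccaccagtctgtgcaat

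Tmem163 (chr1:127537431-127537630, minus strand), the zinc transporter gene with a best score of 2.02, is shown as one of the members with the lowest scores. Its window lies before an internal start site inside the gene, and it held 5 CpGs.
Tmem163: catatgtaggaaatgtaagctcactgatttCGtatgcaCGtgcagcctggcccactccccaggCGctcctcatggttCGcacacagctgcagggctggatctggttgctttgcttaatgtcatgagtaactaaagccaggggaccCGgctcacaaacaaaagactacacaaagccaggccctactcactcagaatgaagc

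The 451 best scores ran from 1.23 to 9.95, with a median of 6.20 and quartiles of 4.49 and 8.07. For all 14193 genes with a promoter summit the median was 194.6, with quartiles of 129.8 and 230.4. Within the set, 2 genes scored between 1 and 2, 28 between 2 and 3, 51 between 3 and 4 and 58 between 4 and 5. Between 62 and 66 genes fell into each unit of score from 5 to 9, and 55 scored between 9 and 10. The 2 genes below 2 were Rcn3 and Myo5c. In the histogram of best scores over all genes with a promoter summit, the bar of the 451 genes is the highest at the low end. The bars fall to 194 genes between 80 and 90 and rise to 1047 between 220 and 230.

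**Figure D1:**
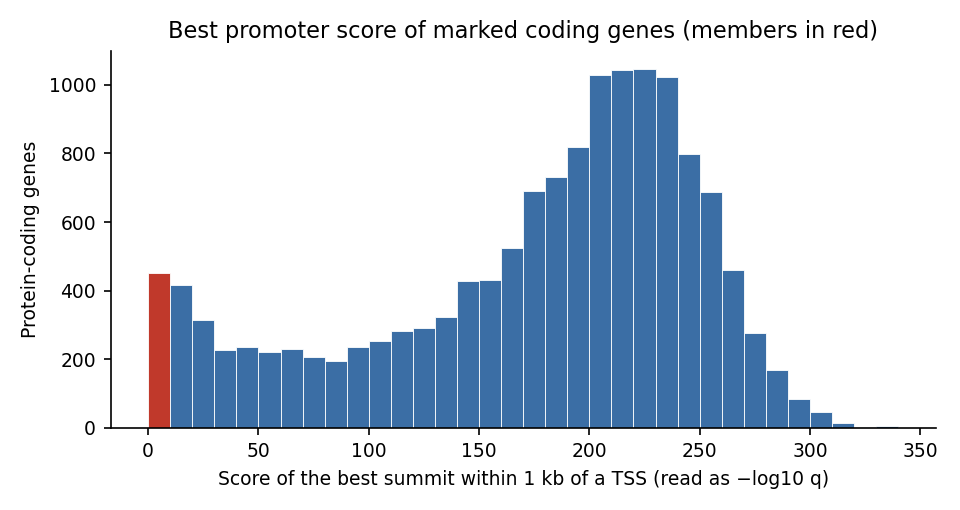
Number of protein-coding genes (y axis) by the score of their best summit within 1 kb of a TSS (x axis, bins of 10), for the 14193 genes with a promoter summit. The red bar holds the 451 weakly marked genes, and the bulk of the other genes lies around the median of 194.6.

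Rcn3, a calcium-binding protein of the endoplasmic reticulum, had the lowest best score, 1.23, at 45083535 on chromosome 7. Myo5c, a class V myosin, followed with 1.61 at 75232129 on chromosome 9. Tmem163, a zinc transporter, scored 2.02, and Th, the tyrosine hydroxylase that sets the rate of catecholamine synthesis, scored 2.03. The ligand gene Wnt3 scored 2.04, and Il7r, the interleukin-7 receptor of lymphocytes, scored 2.10. Next came Fbp2, the muscle fructose-bisphosphatase, at 2.29, the sulfate transporter Slc13a4 and the epidermal lipoxygenase Alox12b, both at 2.50, and the potassium channel Kcnq1 at 2.63. Of these 10 genes, Wnt3, Alox12b and Kcnq1 had the summit nearest to the start of a protein-coding transcript, while in the other 7 the nearest start belonged to a transcript of another class.

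At the upper edge of the set, Creb3l4 scored 9.93, Depp1 scored 9.94, and Tssk3, Fam229a and Agtr1b each scored 9.95. Tssk3, a testis-specific kinase, and Fam229a shared 1 summit between them. Just outside the set, Snai3, Aldh3b1 and Fbxo39 each scored 10.01, Fblim1 scored 10.03 and Bcl6b scored 10.05.

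Most weakly marked genes had a single summit. There was 1 summit within 1 kb of the TSSs in 407 genes, and there were 2 summits in 41 genes, 3 in 2 genes and 4 in 1 gene. More than 1 summit was present in 9.76% of the set (7.35 to 12.8%), against 18.4% (17.7 to 19.0%) of the genes with a best score of 10 or above. The selection contributes here, since each further summit is another chance to score 10. Scarf2, a scavenger receptor family gene, had the most, with scores of 3.52, 3.62, 9.08 and 4.32. Osr1, a zinc finger transcription factor of mesoderm, had scores of 5.31, 3.46 and 4.37. Gbp9, an interferon-induced GTPase, had scores of 1.70, 4.45 and 7.80.

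The best summits lay shortly after the TSS, as did those of strong promoters. In the median they were 156 bp past the TSS in the direction of transcription (quartiles 41.5 and 325 bp), and 80.0% (76.1 to 83.5%) were downstream of it. For genes with a best score of 150 or above the median was 180 bp, and 78.9% (78.1 to 79.7%) were downstream. The weak summits sat within 250 bp of the TSS in 61.2% (56.6 to 65.6%) of cases, against 52.9% (51.9 to 53.9%) for those of 150 or above. The share was 65.1% (62.4 to 67.8%) for those of 10 to 50 and 59.7% for those of 50 to 150. With respect to the annotation of the gene, 223 best summits (49.4%) fell in an exon, 181 (40.1%) in an intron and 46 (10.2%) upstream of the gene. Exons held 53.8% of the best summits in the group of 10 to 50 and 49.2% in that of 50 to 150. They held 37.7% in the group of 150 or above. Neither closeness to the TSS nor the exon share thus set the weakly marked genes apart from the genes of 10 to 50. In the plot of summit positions the curves of both groups have their highest step between 100 and 200 bp downstream of the TSS.

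**Figure D2:**
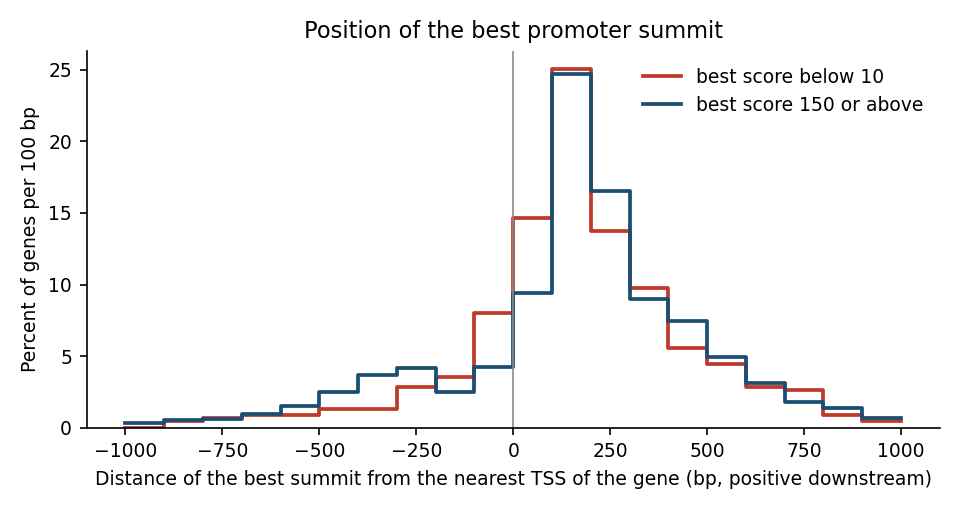
Percent of genes (y axis) whose best summit lay at a given distance from the nearest TSS of the gene (x axis, bp in bins of 100, positive downstream), for the 451 genes with a best score below 10 (red) and the 9884 with 150 or above (dark blue). Both groups peak between 100 and 200 bp downstream.

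The nearest TSS belonged to a protein-coding transcript in 327 genes (72.5%). In the others it belonged to a retained-intron transcript (52 genes), a processed transcript (40), a transcript subject to nonsense-mediated decay (30) or both a decay and a retained-intron transcript (2). In the genes of 10 or above the nearest TSS was protein-coding in 67.9% (67.1 to 68.7%). By group, this share was 75.9% (73.4 to 78.3%) for genes of 10 to 50, 73.4% for 50 to 150 and 65.4% for 150 or above. With an interval of 68.2 to 76.4%, the share in the set was thus close to those of 10 to 50 and 50 to 150. The outermost TSS of the gene was within 1 kb of the best summit in 80.9% (77.1 to 84.3%) of the set. It was so in 85.9% (85.3 to 86.5%) of all genes of 10 or above and in 82.6% (80.4 to 84.7%) of those of 10 to 50.

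The weakly marked promoters were poorer in CpG than those with stronger summits. CpG content was taken as the ratio of observed to expected CpG in the window from 500 bp before to 500 bp after the nearest TSS, a measure that the selection did not use. Its median was 0.39 in the set (quartiles 0.26 and 0.61). It was 0.52 in the 1193 genes with a best score of 10 to 50, 0.68 in the 2665 genes of 50 to 150 and 0.75 in the 9884 genes of 150 or above. In the 7562 coding genes without a promoter summit, measured at the outermost TSS, it was 0.18. A weakly marked gene had the lower ratio in 62.2% of pairs with a gene of 10 to 50, in 76.9% of pairs with a gene of 50 to 150, in 85.3% of pairs with a gene of 150 or above, and in 20.9% of pairs with a gene without a summit. The set thus stood between unmarked genes and each group of stronger promoters, and the curves of CpG content show it spread across the whole range.

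**Figure D3:**
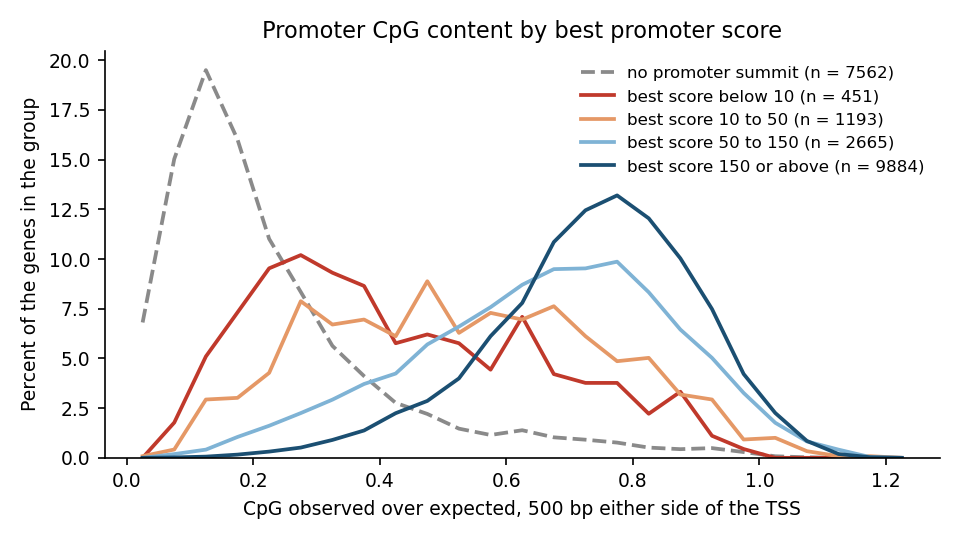
Percent of genes (y axis) by the ratio of observed to expected CpG around the TSS (x axis, bins of 0.05), for coding genes without a promoter summit (grey, dashed) and for 4 groups of the best score. The weakly marked genes (red) have a median of 0.39, between 0.18 for unmarked genes and 0.52 for genes of 10 to 50.

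A ratio of 0.6 or above was found in 117 of the 451 genes, or 25.9% (22.1 to 30.2%). The share was 39.1% (36.4 to 41.9%) in genes of 10 to 50 and 81.4% (80.6 to 82.2%) in genes of 150 or above. A ratio below 0.3 was found in 153 genes, or 33.9% (29.7 to 38.4%), against 18.6% (16.5 to 20.9%) and 1.07% (0.888 to 1.30%). Foxc2, a forkhead factor of mesoderm, had the highest ratio in the set, 0.99, and a best score of 4.85. Ddx43, a germline RNA helicase, had a ratio of 0.99 and a score of 7.04. It was followed by Nrxn2, Gsc and Hist1h2ad, with ratios of 0.95, 0.93 and 0.93. Gsc, a homeobox gene of the early embryo, scored 8.07. The lowest ratios were those of Gbp9, Gbp4 and Gbp8, at 0.054, 0.054 and 0.054. These interferon-induced GTPase genes share 1 best summit, at 105139278 on chromosome 5, so they count as 1 region. Trim30a, an interferon-induced TRIM protein gene, had a ratio of 0.059 with a score of 5.38, and Wdr49 had 0.070 with a score of 2.84. Within the set, CpG content differed little with the score. The median ratio was 0.38 in the 139 genes below 5 and 0.39 in the 312 genes of 5 to 10.

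The share of G and C around the TSS had a median of 54.2% in the set, against 56.7%, 59.8% and 60.3% in the groups of 10 to 50, 50 to 150 and 150 or above, and 46.0% in unmarked genes. The TATA box TATAAA, searched on the sense strand in the 50 bases before the TSS, was present in 13 of the 451 promoters, or 2.88% (1.69 to 4.87%). It was present in 3.19% (2.33 to 4.34%) of promoters of 10 to 50, a share close to that of the set. The share was 0.556% (0.428 to 0.724%) in promoters of 150 or above, 6.89% (6.34 to 7.48%) in unmarked promoters and 3.08% in all coding promoters. Among the 13 were Myh11, the smooth muscle myosin heavy chain (score 3.77), Pgam2, the muscle phosphoglycerate mutase (4.20), Mstn, which encodes myostatin (5.31), and Il1a, which encodes interleukin-1 alpha (8.07). The GC box GGGCGG, searched on both strands in the 250 bases before the TSS, was present in 38.8% (34.4 to 43.4%) of the set. It was present in 52.4% (49.6 to 55.2%) of promoters of 10 to 50 and 65.3% (64.4 to 66.3%) of those of 150 or above. The share was 12.2% in unmarked promoters and 45.2% in all coding promoters. GC boxes contain CpG, so this share is not separate from the CpG content.

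The best summit was also within 1 kb of a TSS of any other gene in 55 genes of the set, or 12.2% (9.49 to 15.5%), against 35.6% (34.6 to 36.5%) of genes of 150 or above. A non-coding gene was there in 31 genes. Another coding gene was there in 30 genes, or 6.65% (4.70 to 9.34%), against 23.1% (22.3 to 23.9%) for genes of 150 or above and 6.79% (5.50 to 8.36%) for genes of 10 to 50. The selection contributes to this difference, because a gene that shares its window with a strong summit cannot have a best score below 10. The genes of the set were 18653 bp long in the median (quartiles 6912 and 41470), against 27039 bp for genes of 150 or above and 7847 bp for unmarked genes. They had a median of 3 annotated transcripts, against 5 and 2. The genes of 10 to 50 were close to the set in both measures, with medians of 19566 bp and 3 transcripts.

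Some genes with a weak promoter summit had a strong summit close by. A strong summit was taken as one that scored at least 102.3, the median of the list. One lay within 5 kb of a TSS of 37 genes, or 8.20% (6.01 to 11.1%), against 6.62% (5.35 to 8.18%) of genes of 10 to 50. In 25 of the 37 that summit was at the promoter of another coding gene, as for Tekt2, a tektin of cilia, whose neighbour Adprhl2 carried a summit of 197.1. In the other 12 it was at no coding promoter, and in 11 of these 12 it lay inside the weakly marked gene itself.

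Among these 11 genes were Tmem163, Cabp1, Btn1a1, Nfib, Fbxl22, Pou2f2, Gab1, Nrxn2, Apold1 and Plxnc1. In Nrxn2, which encodes the presynaptic adhesion protein neurexin-2, the best summit of 7.67 was accompanied by summits of 219.0 at 6419782 and 201.7 at 6498839 on chromosome 19, the latter 1004 bp from a TSS. Nfib, a nuclear factor I transcription factor, scored 5.50 and had a summit of 192.4 at 1083 bp. Gab1, an adaptor of receptor tyrosine kinases, scored 6.97 and had a summit of 161.8 at 1091 bp. Plxnc1, a semaphorin receptor, scored 9.34 and had a summit of 204.2 at 1103 bp. Cabp1, a neuronal calcium sensor, scored 4.45 and had a summit of 146.9 at 1021 bp. The strong summits of the 5 genes Nrxn2, Nfib, Gab1, Plxnc1 and Cabp1 therefore fell just past the 1 kb window. In all, 13 genes of the set had a strong summit between 1 and 1.5 kb of a TSS, and 51 had a summit of 10 or above between 1 and 3 kb. Their weak score is that of the window and not of the whole gene, and with a window of 3 kb these 51 genes left the set.

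**Figure D4:**
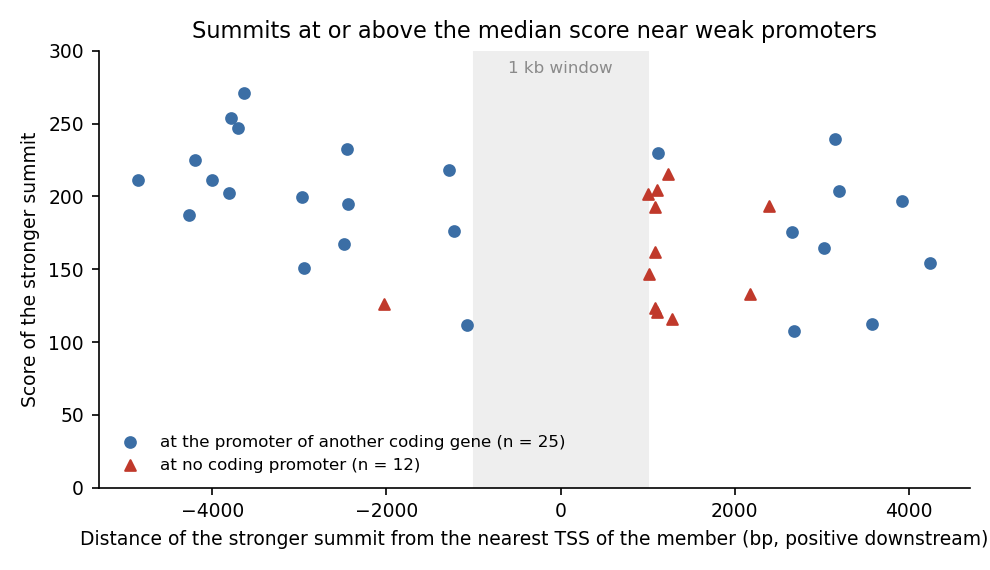
Score (y axis) of the strong summit, of 102.3 or more, found within 5 kb of a TSS in 37 weakly marked genes, by its distance from the nearest TSS of the gene (x axis, bp, positive downstream). The grey band is the 1 kb window of the rule, and most of the 12 summits at no coding promoter (red triangles) lie at its downstream edge, between 1004 and 1279 bp.

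The gene bodies were searched for summits as well. A summit of any score inside the gene and more than 1 kb from its TSSs was present in 20.8% (17.3 to 24.8%) of the set. The share was 18.1% (17.5 to 18.8%) in all genes of 10 or above and 21.2% (19.0 to 23.6%) in those of 10 to 50. A strong one was present in 4.43% (2.89 to 6.75%), 3.06% (2.79 to 3.37%) and 4.61% (3.56 to 5.95%). Gene-body summits thus did not set the weakly marked genes apart from the genes of 10 to 50. The highest gene-body summit in the set was 275.1 in Aim2, a DNA sensor of the inflammasome, and it lay 473 bp from a TSS of Cadm3, a cell adhesion gene. In Dnm1, which encodes the endocytic GTPase dynamin-1 of neurons, the body summit of 229.6 was 208 bp upstream of a TSS of Ciz1. The same summit lay 1115 bp downstream of the nearest Dnm1 TSS, just past the 1 kb window. In Phkg1, the muscle subunit of phosphorylase kinase, the summit of 224.7 belonged to the promoter of Chchd2. In Kcnq1 the summit of 220.1, which lay 187060 bp from the nearest Kcnq1 TSS, was 295 bp from the TSS of the antisense transcript Kcnq1ot1, known for its part in imprinting of this region. In Kdm6b, which encodes an H3K27 demethylase, a summit of 219.0 was 2095 bp from the nearest TSS and at no annotated start of another gene. The first 4 of these summits were thus at the start of another gene inside the annotated span, and that of Dnm1 was close to a TSS of Dnm1 as well.

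The set was compared with lists of genes for cell types and gene classes, and each count is to be read against the 3.18% of all genes with a promoter summit. No weakly marked gene was found among the 19 of 20 pan-neuronal markers with a promoter summit, which allows a share of up to 16.8% by the Wilson interval. None was found among 15 astrocyte markers, 11 marked oligodendrocyte lineage markers or 30 housekeeping genes. Median best scores of these lists were 212.9, 114.6, 102.8 and 232.5. For markers of endothelial and mural cells and of microglia the scores were lower, and the abundance of these cells was not measured. Of the 12 marked endothelial and mural markers, 3 were weakly marked (interval 8.89 to 53.2%), and the median of the list was 32.4. They were Vwf, the von Willebrand factor of endothelium (6.03), Anpep, an aminopeptidase of pericytes (6.24), and Rgs5, a G protein regulator of pericytes (8.01). Of 14 marked microglia markers, 3 were weakly marked (21.4%, 7.57 to 47.6%) and 10 scored between 10 and 50, with a median of 13.2. The bar chart of gene lists places these lists at the top, by the share of their coding genes below 10.

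**Figure D5:**
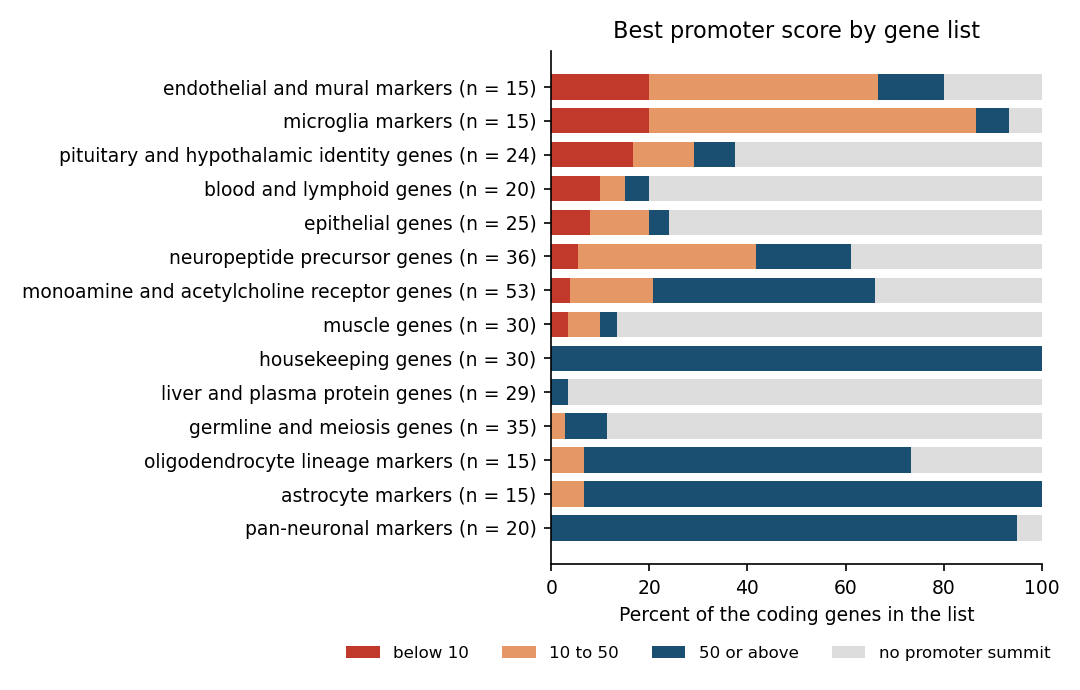
Percent of the coding genes of each list (x axis) by best promoter score: below 10 (red), 10 to 50 (orange), 50 or above (dark blue) or no promoter summit (grey), with the number of coding genes in brackets. Endothelial and mural markers and microglia markers have 3 weakly marked genes each of 15, while pan-neuronal, astrocyte, oligodendrocyte and housekeeping lists have none.

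Most genes of the lymphocyte, muscle, liver, germ cell and epithelial lists had no promoter summit, so few could be weakly marked. Of 20 blood and lymphoid genes 16 had no promoter summit, and Il7r and the co-receptor Cd4 (3.29) were weakly marked. Of 30 muscle genes 26 had none, and Ckm, the muscle creatine kinase, scored 9.05 at a summit shared with Klc3. Of 35 germline and meiosis genes 31 had none and no gene of the list was weakly marked, which allows a share of up to 49.0% of the 4 marked ones. Other germ cell genes that are not in this list were in the set, such as Ddx43 (7.04), Rbm46 (7.12) and Rnf17 (7.63). Of 25 epithelial genes 19 had none, and the splicing regulator Esrp2 (5.50) and the keratin Krt18 (6.81) were weakly marked. Among olfactory receptor genes, 1132 of 1135 had no promoter summit, and Olfr658 scored 9.19. Most of these genes were outside the set for want of any promoter summit.

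Lists of identity, neuropeptide and receptor genes were set against the same 3.18%. Of 24 pituitary and hypothalamic identity genes, 9 had a promoter summit and 4 were weakly marked, or 44.4% of the marked ones (18.9 to 73.3%), among them the homeobox genes Otp (7.29) and Lhx3 (8.21) and the nuclear receptor Nr5a1 (7.71), known as steroidogenic factor 1. Of 36 neuropeptide precursor genes, 22 had a promoter summit and 2 of these (9.09%, 2.53 to 27.8%) were weakly marked, Nmu for neuromedin U (3.34) and Gal for galanin (9.69), while 13 scored between 10 and 50. Of 53 monoamine and acetylcholine receptor genes, 35 had a promoter summit and 2 of these (5.71%, 1.58 to 18.6%) were weakly marked, Htr5b for a serotonin receptor (5.28) and Adra2b for an adrenergic receptor (5.50). Among 14 marked genes of the Wnt ligand family, 5 were weakly marked (35.7%, 16.3 to 61.2%), Wnt3 (2.04), Wnt9b (4.52), Wnt2b (5.59), Wnt16 (7.48) and Wnt6 (8.51).

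Further lists were put together after the members had been read, so their counts lean towards the set and only describe it. Together with the Wnt ligands they hold 122 of the 451 genes, or 27.1%. The largest group was of immune cell genes, with 35 genes of 63 marked. Among them were Tlr7 (3.63), Tlr9 (3.87) and Tlr6 (6.20), receptors for microbial molecules, the kinase Btk of B cells (8.07), Havcr2, the checkpoint receptor TIM-3 (2.96), and the inducible nitric oxide synthase Nos2 (4.74). Genes of developmental transcription factors gave 30 of 93 marked, among them Prdm13 (2.79), Alx1 (2.96), Tbx2 (3.05), Foxc2 (4.85), Gata3 (6.87) and Twist1 (9.85). Genes of fibroblasts and extracellular matrix gave 21 of 47, among them the fibrillar collagens Col3a1 (3.63) and Col1a1 (4.98), the crosslinking enzyme Lox (4.06) and the proteoglycan Dcn (6.20). Vascular and smooth muscle genes gave 19 of 45, with Myh11 (3.77), the myosin light chain kinase Mylk (4.45), the angiopoietin Angpt2 (6.05) and its co-receptor Tie1 (7.95). Motile cilium genes gave 9 of 58, from Ttc29 (3.63) and Ccdc153 (3.67) to Hydin (9.92), a protein of the ciliary central pair. Of genes for monoamine, histamine and acetylcholine synthesis and transport, 3 of 13 marked genes were in the set, Th (2.03), the histidine decarboxylase Hdc (4.85) and the dopamine transporter Slc6a3 (6.24).

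CpG content differed between these groups, counted over all members of each list. The 30 developmental transcription factor genes had a median ratio of 0.69 (0.23 to 0.99), and 26 of them had a ratio of 0.6 or above, Twist1 with 0.87 and Prdm13 with 0.66 among them, while Osr1 had 0.47. The 35 immune cell genes had a median of 0.25 (0.093 to 0.72), and 25 of them had a ratio below 0.3, among them Tlr9 with 0.17 and Btk with 0.25. In this group 2 genes had a ratio of 0.6 or above, Tlr6 with 0.72 and Nos2 with 0.72. The 19 vascular and smooth muscle genes had a median of 0.33 (0.14 to 0.80), from Vwf with 0.14 to Mylk with 0.80. The 21 fibroblast and matrix genes were mixed, with a median of 0.52 (0.18 to 0.93), 8 genes at 0.6 or above and 6 below 0.3, and Col3a1 had 0.18, Col1a1 0.49 and Lox 0.59. The 9 motile cilium genes had a median of 0.40 (0.20 to 0.51), and the 5 Wnt genes one of 0.74 (0.48 to 0.78). The lists hold genes picked with the members known, so these medians describe the named groups only.

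Shares in gene families fell on both sides of the 3.18% of all genes with a summit. Predicted genes named Gm with a number gave the most members, 16 of 256 marked (6.25%, 3.88 to 9.91%). Only 3 of 349 marked Zfp genes, 0.860% (0.293 to 2.50%), were weakly marked, and Zfp955a and Zfp955b each scored 7.12. Solute carrier genes gave 11 of 270 (4.07%, 2.29 to 7.15%), and Kcn potassium channel genes gave 4 of 73, Kcnq1 (2.63), Kcns1 (5.82), Kcnj14 (6.06) and Kcne4 (6.24). None of the 4 marked Hox genes was in the set. Genes with names starting in Adam, which encode metalloproteinases and related proteins, gave 7 of 35 marked genes, from Adam33 (3.35) to Adamtsl5 (9.93). Of 40 marked Hist1 genes, a family chosen after the members were read, 5 were weakly marked, with Hist1h2bk and Hist1h2ah sharing a summit of 4.45 and Hist1h2bf and Hist1h2ad one of 9.05. Histone, Gbp, Slfn and Zfp genes have near-identical copies, and the authors kept only uniquely mapped reads. The part of this step in their scores was not tested.

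Of the 106 coding genes listed as differentially expressed in the Kdm5c-KO amygdala by RNA-seq, 81 had a WT promoter summit and 8 of these were weakly marked, or 9.88% (5.09 to 18.3%), against 3.18% of all genes with a summit. They were Zar1, an oocyte factor (3.22), Pgam2 (4.20), Nhlrc4 (5.92), BC024139 (6.68), BC049352 (7.11), Rbm46, an RNA-binding protein of meiosis (7.12), Rnf17, a protein of male germ cells (7.63), and Scarf2 (9.08). For the Kmt2a-HET amygdala, whose list was made with a more relaxed threshold than that of Kdm5c-KO, 1 of 50 marked genes was in the set, Fcgr2b, an inhibitory Fc receptor, at 4.46. That promoter scores of genes changed in Kdm5c-KO were low was already known from these data, so the first count is no separate evidence of it. KDM5C removes the mark analysed here, but mutant peaks were not analysed and nothing on a change of the mark at these genes can be given.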

How the data were processed

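H3K4me3 ChIP-seq peaks of WT amygdala were taken as deposited. Per the Methods, amygdala nuclei were digested with micrococcal nuclease, and the authors used Bowtie to align the reads to mm10, kept reads with a unique position and called peaks against input with MACS2, version 2.1.0.20140616 in the submitters' processing notes. The deposited score of each summit was read as −log10 of the q-value. Summits lie on chromosomes as named in GRCm38, and 99.9% of 58968 GENCODE start codons read ATG in the RefSeq sequence used for CpG content. The Methods describe removal of black-listed regions alongside the count tables of all genotypes, and do not say whether the WT list was treated so.

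From the list, 24132 summits on chromosomes 1 to 19 and X were assigned to every TSS of each protein-coding gene of GENCODE M21 within 1 kb, in Python 3.11.15 with numpy 2.4.6, and samtools 1.23.1 indexed the genome. The steps were tested on simulated data. Repeats are the soft-masked bases of the sequence. Genes named were the 10 lowest scores, 5 on each side of the threshold, the 5 extremes of CpG content, summit number and gene-body summits, and the lowest-scoring members of each list, with further members of the lists and TATA-containing genes chosen after their values were seen. Sequences were to be those of the CpG and score extremes outside 1 chromosome and were then restricted to windows without coding-gene exons. The members and lists were chosen with earlier results of these data known. Values of single microglia markers and of some other members, and some sequences, are not reported here. Only the gene names of the lists of differentially expressed genes were used.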

Additional observations from a re-analysis of the deposited data

How the results depend on the processing

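No paired analysis was possible because both WT mice share a single peak list, and for the same reason no replicate could be left out. The number of weakly marked genes was 139 with a threshold of 5 and 867 with 20. It was 463 for a 500 bp window, 452 for a 3 kb window, 443 with TSSs of protein-coding transcripts only and 432 with the outermost TSS only, and 396, 400, 423 and 370 of these were among the 451. Median CpG content ranged from 0.37 to 0.43, the latter with 250 bp either side of the TSS, and the other marked genes had a median of 0.71 to 0.73 under the 6 alternatives for the threshold, window and TSSs. The median position of the best summit was 128 bp with the 500 bp window, 179 bp with protein-coding TSSs and 229 bp with the outermost TSS, and 75.8% with the 500 bp window and 85.4% with the outermost TSS were downstream. Strong gene-body summits were found in 2.16% of genes with a threshold of 5, in 10.6% with the 500 bp window and in 10.2% with the outermost TSS. Strong summits within 5 kb were found in 4.32% with a threshold of 5 and in 16.0% with the 500 bp window, and in 16.9% of genes when the distance was 10 kb. A smaller window or fewer TSSs leave strong summits outside it by construction. The median share of repeat-masked bases was 0% within 100 bp of the summit, in place of 5.39% within 250 bp. Of the 43 alternative values, 28 were counted as unchanged and 15 as moved. The first label does not mean an equal value. It includes a TATA share of 4.43% with 100 bases before the TSS, against 2.88%. It also includes gene-body summits of 50 or above in 5.99% of genes, against 4.43% for strong ones. Leaving out members over 50% repeat-masked was chosen after seeing the data and moved neither the count (445) nor the CpG content (0.39). A single pooled list limits every value.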

Other observations

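Weakly marked genes lay on every chromosome examined, and adjacent coding genes were both in the set in 22 runs. In 10 of these runs the genes had separate summits. In the others the genes shared 1 best summit and so entered the set together, and 1 of these runs was of 2 entries named Igsf5. The number of runs that would arise by chance was not estimated, so the counts do not show clustering. Vwf (6.03), Ano2 (7.15) and Ntf3 (9.72), which encode von Willebrand factor, a calcium-activated chloride channel and neurotrophin-3, formed a run of 3 on chromosome 6 with 3 summits. Wnt9b (4.52) and Wnt3 (2.04) were neighbours on chromosome 11, as were Slfn8 (8.76) and Slfn2 (2.90). On chromosome X, 18 of 487 marked genes were in the set, 3.70% (2.35 to 5.77%), against 3.16% (2.88 to 3.47%) on the autosomes. Chromosome 7 had the highest share, 4.74% (3.62 to 6.18%).

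Few weak summits lay in repeats. Within 250 bp of the summit more than 50% of bases were repeat-masked in 6 genes of the set, 1.33% (0.611 to 2.87%). The share was 0.116% (0.0717 to 0.189%) in all genes of 10 or above. It was 0.587% (0.285 to 1.21%) in those of 10 to 50, an interval that overlaps that of the set. Of the 6 genes, Gm17535 (6.92), Gm10719 (9.39), Gm10720 (3.03) and Gm11168 (3.34) lay between 3004616 and 3035015 on chromosome 9, with 92.0 to 98.6% masked bases. The others were Aim2, with 62.7%, and Xlr (3.63), an X-linked lymphocyte-regulated gene, with 54.1%. The part of repeats in these scores was not tested.

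Many weak summits had exactly the same score. The 438 distinct best summits of the set took 254 score values, and 260 summits shared their score with another. The most frequent, 8.07, was that of 17 summits, among them those of Gsc, Btk, Il1a and Apold1. Differences between tied or closely spaced scores cannot be read as an order of these promoters.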
